A study of Mus musculus with 6 samples.

Results

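The naive-state transcription factors of mouse embryonic stem (ES) cells were followed here after knockdown of the long noncoding RNA Panct1. They are the 10 genes Klf2, Klf4, Klf5, Esrrb, Tfcp2l1, Tbx3, Nr5a2, Nr0b1, Prdm14 and Sall1, taken through every probe set that the array annotation gives to exactly 1 of them. That gave 25 probe sets of 45037 tested, and 10 genes of 18193. No probe set named 1 of these genes together with another.

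The series compared 3 arrays of Panct1 knockdown with 3 arrays of a control that received esiRNA to Luciferase, an insect enzyme with no mouse counterpart. In an esiRNA, enzymatic digestion of long double-stranded RNA yields many different silencing fragments. Both groups were ES cells of the line Oct4-Gip, which carries an Oct4 reporter, grown in serum and the cytokine LIF, and RNA was taken at 72 hours. Each well held 60000 cells and 800 ng of esiRNA, delivered by reverse transfection. No second means of silencing Panct1 was among the samples, so effects of the esiRNA other than on Panct1 cannot be told apart from its depletion. The labels do not say whether the replicates were separate cultures, so the p-values measure the spread between these arrays, which may be technical.

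Naive pluripotency is the state of ES cells that resemble the unspecialised cells of the early blastocyst. It is held by a web of transcription factors that bind each other's genes and share targets with Oct4, Sox2 and Nanog. LIF feeds the web through the kinase JAK and the transcription factor STAT3, which induces Klf4 and Tfcp2l1, while Wnt signalling relieves repression of Esrrb by Tcf7l1. The web is lost as cells leave this state, and single members can often be replaced by others.

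Most of these factors had lower RNA levels after Panct1 knockdown. Taking the brightest probe set of each gene, 7 of the 10 genes fell and 1 rose, by limma at an adjusted p under 0.05, against 11.3% of all genes that fell and 12.9% that rose (24.2% in either direction). The genes that fell were Nr0b1, Sall1, Nr5a2, Klf2, Esrrb, Prdm14 and Klf4, Tfcp2l1 was the gene that rose, and Klf5 and Tbx3 did not pass. Over single probe sets, 10 of 25 fell and 1 rose, against 6.76% and 7.82% of all probe sets (14.6% in either direction). The 3 knockdown arrays lay wholly to one side of the 3 control arrays for 14 of the 25, against 30.4% of all probe sets, and the same held for 8 of the 10 genes, against 38.3% of all genes. The median difference was -0.25 on the log2 scale over the 25 probe sets and -0.02 over all probe sets. It was -0.47 over the 10 genes and -0.02 over all genes.

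All values are log2 signals from RMA, a method that corrects the background, equalises the arrays' distributions and summarises the probes of a set. Signals of different probe sets are not comparable as amounts of RNA. The array medians lay between 6.07 and 6.09 and the lower quartiles between 4.65 and 4.70. The brightest probe set of each of the 10 genes lay above the median on every array, while 5645 of all 18193 genes lay below it on every array. Dim probe sets seldom passed, 166 of 9703 below the lower quartile. Shares given for all genes include such dim genes, and no share was computed for genes of matched level. Of the 25 probe sets, 3 lay below the lower quartile on every array, where a signal is near background, and none of these 3 passed. Among the other 22, 10 fell and 1 rose, and the groups did not overlap in 13. Over all probe sets at such levels, 8.39% fell and 9.72% rose (18.1% in either direction), and 35.5% did not overlap. All 9 markers of ES cells measured, among them Pou5f1, Sox2, Nanog and Zfp42, lay above the upper quartile (8.19 to 8.27) on every array, as their label has it. Of these 9 markers 3 fell over genes and 0 rose, against 11.3% and 12.9% of all genes. They were Zfp42, also called Rex1, at -0.42 (limma adjusted p = 0.00115), Pou5f1 at -0.24 and Utf1 at -0.20. The lists overlap, and all 3 are counted again below. Pou5f1 is also listed as a core factor, and Zfp42 and Utf1 among the other naive and ES cell genes. Over all probe sets, only Zfp42 of these 3 passed, and the 3 probe sets of Utf1 differed by -0.23 to 0.03. The annotation used gives the name Panct1 to no probe set, so its depletion was not assessed. In such bulk samples, fewer cells in the naive state and less RNA per cell cannot be told apart.

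The bases before a transcript start listed by RefSeq are shown for the members with the strongest fall (Nr0b1) and the rise (Tfcp2l1), and for Esrrb, whose protein helps to hold the naive state, at the first of the 2 start sites listed. The sequences are from RefSeq (GRCm38.p6), 250 bases each, read 5′ to 3′ on the gene's strand, and capitals mark matches to the motifs described after them. The windows are chrX:86191525-86191774 (plus strand) for Nr0b1, chr1:118627695-118627944 (plus strand) for Tfcp2l1 and chr12:86360867-86361116 (plus strand) for Esrrb.
Nr0b1: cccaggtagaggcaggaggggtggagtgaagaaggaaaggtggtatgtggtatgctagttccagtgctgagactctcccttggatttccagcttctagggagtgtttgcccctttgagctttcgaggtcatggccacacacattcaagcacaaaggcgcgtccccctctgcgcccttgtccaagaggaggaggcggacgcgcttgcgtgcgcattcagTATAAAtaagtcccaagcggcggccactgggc
Tfcp2l1: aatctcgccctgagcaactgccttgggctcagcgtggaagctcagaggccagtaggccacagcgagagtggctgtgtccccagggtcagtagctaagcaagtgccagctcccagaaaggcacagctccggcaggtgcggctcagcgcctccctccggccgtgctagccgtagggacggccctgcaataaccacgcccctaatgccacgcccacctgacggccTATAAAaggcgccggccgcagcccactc
Esrrb: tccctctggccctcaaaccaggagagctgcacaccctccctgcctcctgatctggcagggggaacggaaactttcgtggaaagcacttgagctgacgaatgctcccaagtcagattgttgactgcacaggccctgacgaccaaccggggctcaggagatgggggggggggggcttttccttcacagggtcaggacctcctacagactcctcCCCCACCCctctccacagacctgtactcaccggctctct

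The windows of Nr0b1 and Tfcp2l1 both hold TATAAA, the letters of a TATA box, 32 and 28 bases before the transcript start that follows each window. For Tfcp2l1 that start lies inside the gene as annotated, whose first base is 118627923, so the last 22 bases of the window belong to the gene and TATAAA begins 6 bases before its first base. That of Esrrb holds a match to the Klf-type motif CCNCACCC, which begins 39 bases before the start. RefSeq windows were found for 7 of the 10 genes, 11 in all with alternative starts. Both strands were searched, and the motifs do not overlap in these windows. TATAAA was in 3 of the 11 (Tfcp2l1, Nr5a2 and Nr0b1) and in 12.4% of 32851 windows of the same length genome-wide. CCNCACCC was in 4 of the 11, from Esrrb, Nr5a2 and Sall1, against 14.9% genome-wide, and CCAAT in 3, against 33.9%. The letters TCAAGGTCA, bound by Esrrb and Nr5a2, TTCCNGGAA, bound by STAT factors, and ATGCAAAT, bound by Oct factors, were in 0 of the 11 windows, and in 0.387%, 0.913% and 1.60% genome-wide. A match is a description of the letters and not a binding site.

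Among the nuclear receptors, Nr0b1 moved the most. Nr0b1, also called Dax1, lacks the usual DNA-binding fingers and acts as a partner of Oct4, Esrrb and Nr5a2. The gene lies on chromosome X at 86191775 to 86195947 (GRCm38.p6) and has 1 probe set, 1417760_at. Its log2 signal was 10.40, 10.32 and 10.43 on the knockdown arrays, against 11.78, 11.66 and 11.66 on the control arrays. The groups were far apart beside the spread within each, 10.38 ± 0.06 in knockdown and 11.70 ± 0.07 in control (SD, n = 3). The difference was -1.32 (SE 0.07; limma adjusted p = 1.75e-05), a level 2.49-fold lower in knockdown. In the order of all genes by difference, Nr0b1 stood at place 33 from the lowest.

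Nr5a2, also called LRH-1, is an orphan nuclear receptor that binds the Oct4 gene and is needed for its expression in the epiblast. It lies on chromosome 1 at 136842562 to 136960448 and has 4 probe sets, of which 3 fell. The brightest, 1456521_at, read 9.68, 9.49 and 9.42 in knockdown, against 10.11, 10.07 and 10.14 in control, so the groups did not overlap (difference -0.58, SE 0.08, limma adjusted p = 0.00199). For 1420410_at the values were 9.24, 9.13 and 9.01 in knockdown, against 9.83, 9.73 and 9.77 in control, and it fell by 0.65 (limma adjusted p = 8.62e-04). The set 1449706_s_at, whose ending marks probes that can also read similar transcripts, fell by 0.54 (limma adjusted p = 0.00505). Knockdown replicate 1 was the highest of its group in all 3 of these sets, and still below every control array. The fourth set, 1449707_at, was dim at 5.14 ± 0.17 in knockdown and 5.27 ± 0.06 in control (SD, n = 3), and its difference of -0.13 did not pass (limma adjusted p = 0.446).

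Esrrb, a nuclear receptor that binds DNA as a single copy and can stand in for Nanog in ES cells, lies on chromosome 12 at 86361117 to 86521628. Its brightest probe set, 1436926_at, read 10.22, 10.14 and 10.23 in knockdown, against 10.82, 10.48 and 10.79 in control. The groups did not overlap although control replicate 2 lay nearer to the knockdown arrays, and the set fell by 0.50 (SE 0.10, limma adjusted p = 0.00952). The other 2 sets differed in the same direction without passing. For 1422986_at the difference was -0.36 (limma adjusted p = 0.0537), with 6.52, 6.68 and 6.79 in knockdown against 7.05, 6.84 and 7.18 in control. For 1441921_x_at it was -0.25 (limma adjusted p = 0.126), and knockdown replicate 3 and control replicate 3 were both at 9.26. Without control replicate 2, its lowest control array, 1422986_at passed (-0.45, limma adjusted p = 0.0275). On all 6 arrays it also passed with repeated quantile normalisation (limma adjusted p = 0.0411), an intensity trend with robust variance (0.0390), array weights (0.0310) and without dim probe sets (0.0334). In the other 9 of the 14 settings varied it did not pass, with a limma adjusted p of up to 0.151. At the level of the gene the call held with the mean of the probe sets (-0.37, limma adjusted p = 0.00903). It was lost where the set with the smallest within-group variance, 1441921_x_at, stood for Esrrb (limma adjusted p = 0.0720) and under a 1.5-fold minimum.

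**Figure D1:**
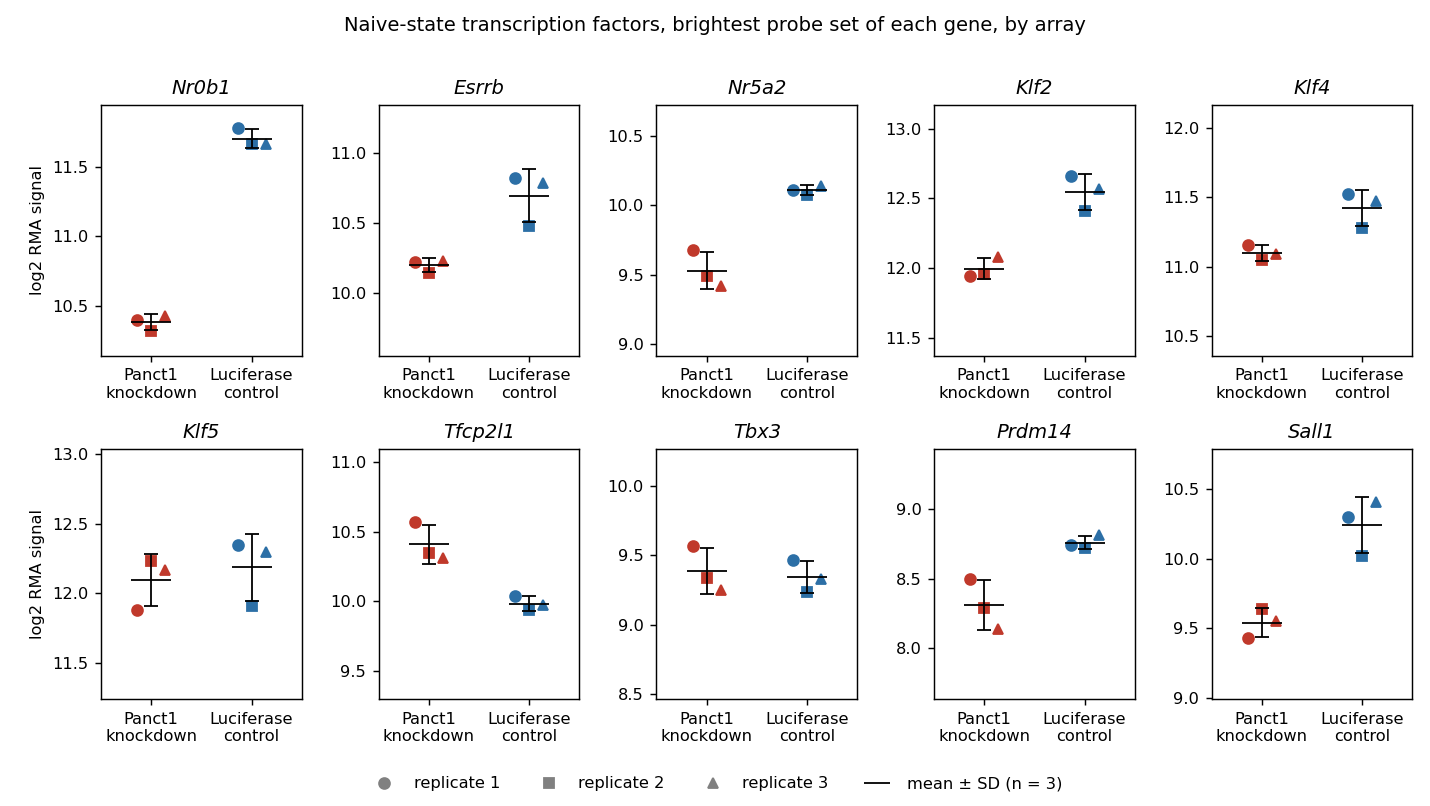
Log2 RMA signal (vertical axes, each spanning the same range) of the brightest probe set of each of the 10 genes on the 3 Panct1 knockdown arrays (left, red) and the 3 Luciferase control arrays (right, blue), with the mean ± SD. The groups are apart for 8 genes, with Tfcp2l1 higher and 7 genes lower in knockdown, and overlap for Klf5 and Tbx3.

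Of the Krüppel-like zinc finger factors, which share many sites in ES cells and can replace one another there, Klf2 and Klf4 fell and Klf5 did not pass. Klf2 (chromosome 8 at 72319062 to 72321654) has 1 probe set, 1448890_at, with 11.94, 11.96 and 12.08 in knockdown, against 12.66, 12.41 and 12.57 in control. The groups did not overlap, and it fell by 0.55 (SE 0.08, limma adjusted p = 0.00285), a level 1.47-fold lower. Klf4, a target of STAT3 and one of the reprogramming factors, lies on chromosome 4 at 55527137 to 55532475. Its brightest set, 1417394_at, read 11.16, 11.05 and 11.09 in knockdown, against 11.52, 11.28 and 11.47 in control, again without overlap, and fell by 0.32 (SE 0.08, limma adjusted p = 0.0300). The second set for Klf4, 1417395_at, differed by -0.31 without passing (limma adjusted p = 0.0906). In that set control replicate 2 was at 10.34 and the other control arrays at 10.72 and 10.68, against 10.33, 10.22 and 10.27 in knockdown. Without control replicate 2, whose removal widens this difference by construction, the set passed at -0.43 (limma adjusted p = 0.0116). On all 6 arrays it passed with an intensity trend and robust variance (limma adjusted p = 0.0429) and with array weights (-0.35, limma adjusted p = 0.0395). In the other 11 of the 14 settings varied it did not pass, with a limma adjusted p of up to 0.269. The call for 1417394_at was the least secure of those made. It was lost without knockdown replicate 2 or 3 (limma adjusted p = 0.102 and 0.0802), without control replicate 1 or 3 (0.112 and 0.0905) and with the replicate block (0.0512), over a range of 0.00618 to 0.112.

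Klf5, which in the embryo is active in the trophectoderm as well as in the naive inner cells, lies on chromosome 14 at 99298691 to 99313412. Its brightest set, 1451021_a_at, read 11.88, 12.23 and 12.17 in knockdown, against 12.35, 11.91 and 12.30 in control, so the groups overlapped. The difference was -0.09, with a 95% interval of -0.40 to 0.21 that includes the difference measured for Klf4 (limma adjusted p = 0.733). The sets 1451739_at and 1430255_at differed by 0.16 and 0.11 (limma adjusted p = 0.606 and 0.647). No direction can be given for Klf5, and a change of the size seen in Klf4 was not detectable at this spread.

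Tfcp2l1, a factor of the grainyhead family that STAT3 induces and that sustains self-renewal, was the member that rose. It lies on chromosome 1 at 118627923 to 118685168. Its brightest set, 1418091_at, read 10.57, 10.35 and 10.31 in knockdown, against 10.04, 9.94 and 9.97 in control. All knockdown arrays lay above all control arrays, and the difference was 0.43 (SE 0.08, limma adjusted p = 0.0101), a level 1.34-fold higher. The other 2 sets lay below the lower quartile on every array. They read 3.79 ± 0.03 in knockdown and 3.66 ± 0.06 in control (1460715_x_at), and 3.48 ± 0.23 in knockdown and 3.42 ± 0.15 in control (1460714_at; SD, n = 3), and did not pass. The rise therefore rests on 1 probe set.

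Tbx3, a T-box factor linked to LIF and PI3K signalling in ES cells, lies on chromosome 5 at 119670534 to 119684724, and none of its 5 probe sets passed. The brightest, 1448029_at, read 9.57, 9.34 and 9.25 in knockdown, against 9.47, 9.24 and 9.33 in control, and the groups overlapped. Its difference was 0.04, with a 95% interval of -0.19 to 0.27 (limma adjusted p = 0.855). The 5 differences ran from -0.05 to 0.08, and the groups overlapped in every set. The sets 1439567_at, 1445757_at and 1444594_at lay below the median on every array, and 1444594_at also below the lower quartile.

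**Figure D2:**
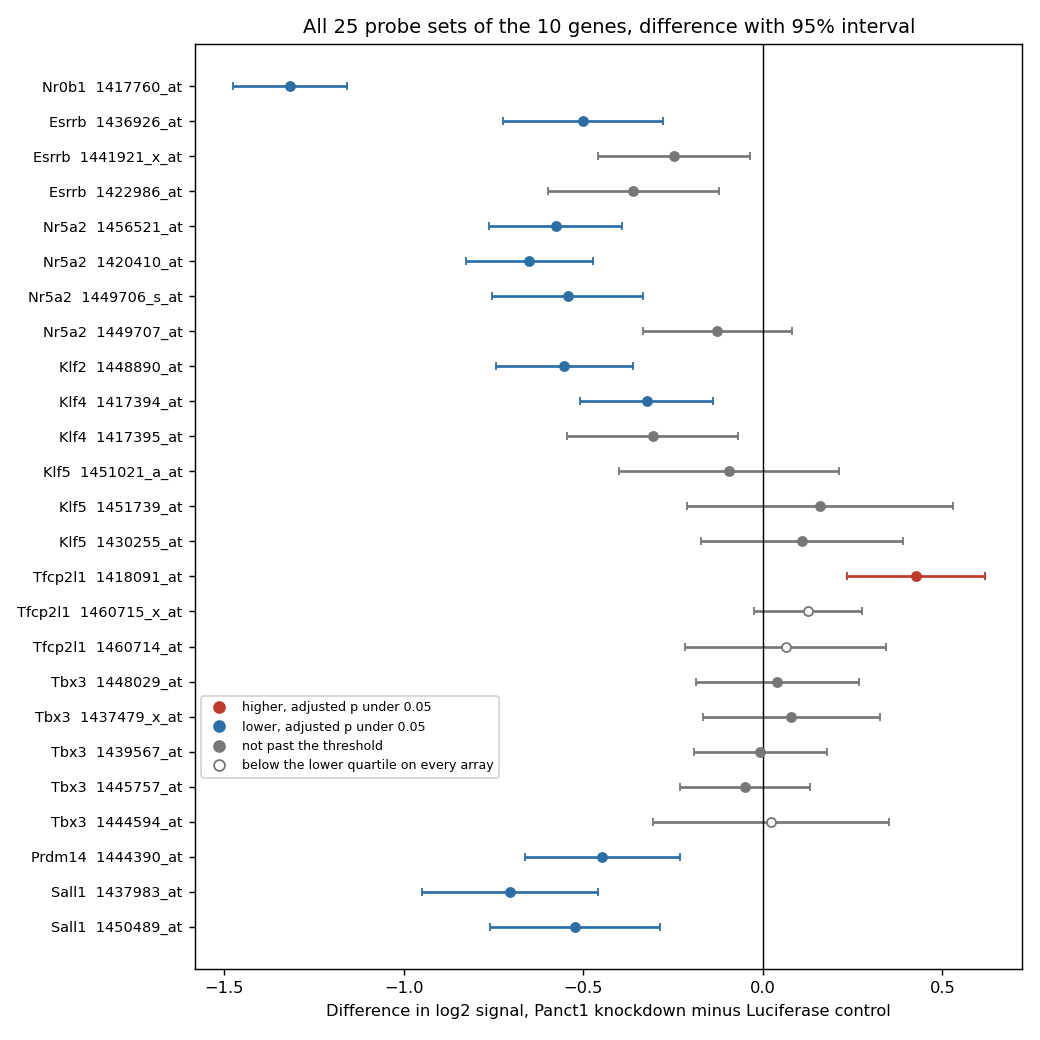
Difference in log2 signal (horizontal axis, Panct1 knockdown minus Luciferase control, with its 95% interval from limma) for all 25 probe sets, grouped by gene. The 10 sets that fell (blue) belong to 7 genes, the set that rose (red) to Tfcp2l1, and open points are sets below the lower quartile on every array.

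Prdm14 and Sall1 also fell. Prdm14, a zinc finger protein that holds down FGF signalling and DNA methyltransferase genes and is needed for germ cells, lies on chromosome 1 at 13113428 to 13127163. Its 1 set, 1444390_at, read 8.50, 8.29 and 8.14 in knockdown, against 8.74, 8.72 and 8.81 in control. The groups did not overlap, with wider spread in knockdown than in control, and it fell by 0.45 (SE 0.10, limma adjusted p = 0.0143). Without control replicate 3 it missed the threshold over all probe sets (-0.42, limma adjusted p = 0.0514). Sall1, a zinc finger relative of the core factor Sall4, lies on chromosome 8 at 89027242 to 89044162, and both of its sets fell. The set 1437983_at read 9.43, 9.64 and 9.55 in knockdown, against 10.30, 10.02 and 10.41 in control, and fell by 0.70 (SE 0.11, limma adjusted p = 0.00303). The set 1450489_at read 7.73, 7.98 and 7.93 in knockdown, against 8.53, 8.21 and 8.47 in control, and fell by 0.52 (limma adjusted p = 0.0104). In both sets the groups did not overlap, and control replicate 2 was the control array nearest to the knockdown arrays.

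The same control array was the lowest of its group in several members. Control replicate 2 was the lowest of the 3 control arrays in 15 of the 25 probe sets, against 32.2% of all probe sets, and control replicate 1 was the highest in 15, against 28.8%. Probe sets of the same gene are counted separately in this. Leaving out the lowest control array makes a fall larger by construction, so the values that follow show only by how much. With control replicate 2 left out, Sall1 fell by 0.82, Klf2 fell by 0.62, Esrrb fell by 0.61 and Klf4 fell by 0.40 in the brightest sets. Klf5 differed by -0.23 (limma adjusted p = 0.198 over genes). Left out in turn, each array gave 8 to 12 probe sets and 6 or 7 genes that fell, and 1 probe set and 1 gene that rose. The missing gene was Klf4 in each case with 6 genes, namely without knockdown replicate 2 or control replicate 1 or 3. A minimum change of 1.5-fold left Nr0b1 and Sall1 as genes that fell and none that rose.

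**Figure D3:**
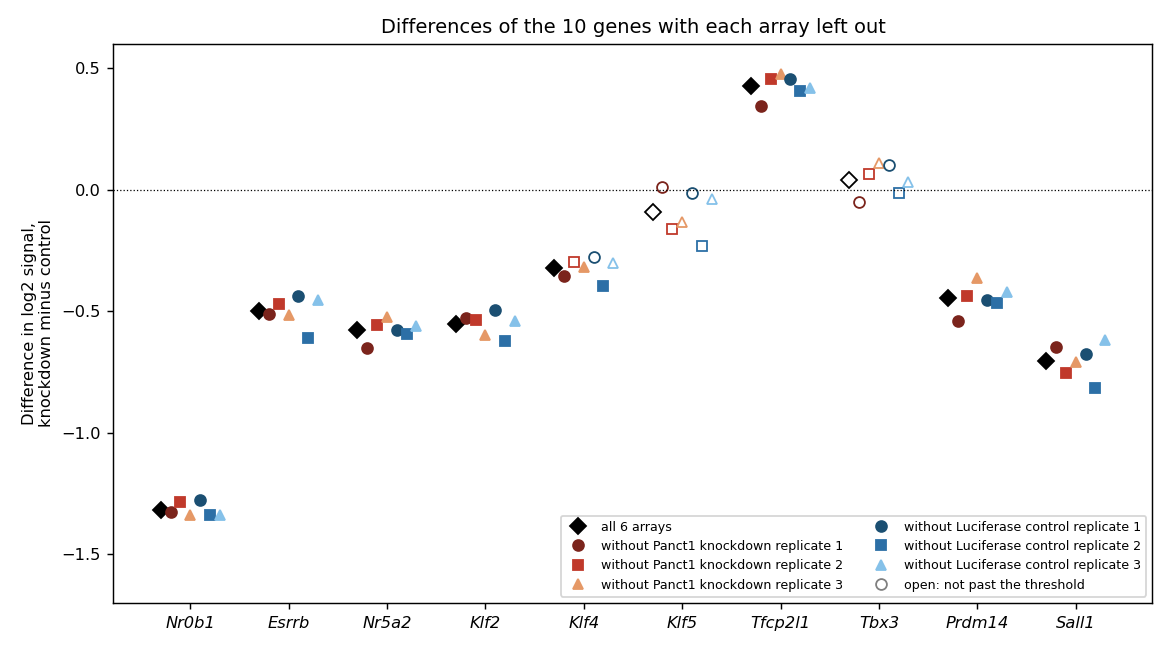
Difference in log2 signal (vertical axis, Panct1 knockdown minus Luciferase control) of the brightest probe set of each gene with all 6 arrays (black diamonds) and with each array left out. Filled points passed at an adjusted p under 0.05 over all genes; Klf4 is open in 3 of the 6 sets of arrays, and Klf5 and Tbx3 are open in all.

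Of the core factors that the members bind beside, only Pou5f1 passed. Pou5f1, which encodes Oct4, read 13.58, 13.74 and 13.75 in knockdown, against 13.97, 13.92 and 13.91 in control, and fell by 0.24 over genes (limma adjusted p = 0.0324), but missed the threshold over all probe sets. Nanog averaged 12.71 ± 0.07 in knockdown and 12.57 ± 0.04 in control (SD, n = 3), a difference of 0.15 that did not pass (limma adjusted p = 0.143). Sox2 differed by -0.14 (limma adjusted p = 0.189) and Sall4 by -0.02 (limma adjusted p = 0.875). With 1 of 4 fallen and 0 risen, this list had a median difference of -0.08. Of all genes 11.3% fell and 12.9% rose, and 1 of 4 is near the 24.2% that passed in either direction. Whether the members and these core factors differ in response was not tested.

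Other genes that mark the naive state or ES cells mostly fell with the members. Of 20 measured on a list of 22, 15 fell and 2 rose, with a median of -0.38, where 11.3% of all genes fell and 12.9% rose. The 15 include Zfp42 and Utf1, already counted among the markers of ES cells. Manba fell by 1.11 and Jam2, a junction adhesion molecule, fell by 0.82. Fgf4, the growth factor of the inner cell mass, fell by 0.92, with 10.03, 10.19 and 10.28 in knockdown against 11.12, 11.03 and 11.10 in control. Dppa3, also called Stella, which protects DNA methylation after fertilisation and marks naive cells, rose by 1.14, with 11.36 ± 0.09 in knockdown and 10.22 ± 0.01 in control (SD, n = 3; limma adjusted p = 1.02e-05). Dppa3 thus moved the way Tfcp2l1 did, against most of the list.

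The inputs to the network gave no single direction. Of 8 genes from LIF to STAT3, 3 rose and 2 fell, with a median of -0.08, where 12.9% of all genes rose and 11.3% fell. Lifr, the receptor for LIF, read 9.75, 9.93 and 9.73 in knockdown, against 10.63, 10.35 and 10.76 in control, and fell by 0.78 (limma adjusted p = 0.00101). Stat3, which the naming rule did not select and which was added after its values were seen, read 9.84, 9.98 and 9.81 in knockdown, against 10.16, 10.04 and 10.31 in control, and fell by 0.29 (limma adjusted p = 0.0356). Jak2, a kinase that phosphorylates STATs, rose by 0.66, Lif itself by 0.34 and the phosphatase gene Ptpn11 by 0.31 (limma adjusted p = 9.69e-05, 0.00822 and 0.0173). Over all probe sets, 2 of 2 sets passed for Jak2, 1 of 2 for Lif (0.17 to 0.34) and 1 of 3 for Ptpn11 (-0.06 to 0.31). Of 9 genes measured on the ERK and GSK3 list, 1 rose and 0 fell, with a median of 0.01, and 1 of 9 is near the 12.9% of all genes that rose. That gene was Gsk3b, the kinase that marks beta-catenin for destruction, with 9.05, 9.03 and 9.08 in knockdown against 8.29, 8.31 and 8.51 in control, a rise of 0.68 (limma adjusted p = 2.70e-04). Flcn, Ctnnb1 and Map2k2 differed by -0.26, 0.08 and -0.08 without passing. Of the 6 probe sets for Gsk3b, 4 passed as risen, with differences from 0.04 to 0.90.

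Of 13 genes for proteins that work with the members, 6 fell and 0 rose, with a median of -0.22, where 11.3% of all genes fell and 12.9% rose. All 13 lay above the upper quartile on every array, unlike many of the genes behind those shares. Ncoa3, a coactivator that Esrrb recruits in ES cells, read 9.70, 9.57 and 9.48 in knockdown, against 10.30, 10.32 and 10.39 in control, and fell by 0.75 (limma adjusted p = 1.52e-04), and both of its probe sets fell. Nacc1, a BTB domain protein of the Nanog interaction network, fell by 0.70 (limma adjusted p = 8.42e-04), and 2 of its 3 probe sets fell. Eed and Ezh2, subunits of the Polycomb complex PRC2 that Prdm14 recruits, fell by 0.33 and fell by 0.32 (limma adjusted p = 0.00356 and 0.00987), while 1 of the 2 probe sets of Eed differed by 0.07. The genes named from the other lists were those with the smallest p in each list, a choice that favours genes that pass. Of these 54 genes 43 passed, which is therefore no measure of how often genes of the lists changed. Of the 43, 25 had several probe sets. Pou5f1, with 1 probe set, is not among the 25, and it passed over genes but not over all probe sets. All sets of a gene passed in 1 direction for 9 of the 25, at least 1 set did not pass for 16, and a set passed in the opposite direction for 0.

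Genes of primed epiblast, the state that follows the naive one, moved in both directions: of 19, 5 rose and 6 fell, with a median of -0.10. Of all genes, 12.9% rose and 11.3% fell. Cldn6, a claudin of early epithelia, rose by 1.32 and Wnt8a by 1.03, while Foxd3 fell by 1.04 and Tcf15 fell by 0.64 (limma adjusted p from 5.86e-06 to 2.59e-04).

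Markers of trophectoderm, the layer that forms the placenta, were higher where the members were lower. Of 11, 9 rose and 0 fell, where 12.9% of all genes rose and 11.3% fell. The list's mean log2 signal was 8.67 on each knockdown array, against 7.43 to 7.50 on the control arrays. Krt19, Krt8, Krt7 and Plet1 rose by 2.40, 2.28, 1.93 and 1.47. Of the 3 probe sets of Plet1, 2 passed, with differences from 0.07 to 1.47. Elf5, whose mean lay at 4.31 in knockdown and 4.50 in control, below the lower quartile, and Hand1 did not pass. Their part in the lower levels of the naive factors was not tested. For the other marker lists, the mean log2 signal was 6.18 to 6.30 in knockdown and 6.17 to 6.25 in control for primitive endoderm, with 2 of 9 risen and 3 fallen. It was 5.82 to 5.96 in knockdown and 5.58 to 5.59 in control for primitive streak and mesoderm (3 of 7 risen, 0 fallen). For neuroectoderm it was 6.42 to 6.52 in knockdown and 6.48 to 6.52 in control (2 of 8 risen, 2 fallen), and for fibroblast 5.81 to 5.84 in knockdown and 5.67 to 5.77 in control (2 of 8 risen, 0 fallen). Counted in either direction, 5 of 9, 3 of 7, 4 of 8 and 2 of 8 genes of these lists passed, against 24.2% of all genes. The count for fibroblast is near that share. The genes of these other lists with the smallest p were Amn (0.65), Fgf8 (1.06), Mixl1 (0.59), Wnt3 (0.61), Map2 (0.80), Nes (0.64), Col3a1 (0.63) and Col1a1 (0.28), which rose, and Hnf4a (-0.43), Gata6 (-0.40), Sox17 (-0.33), Pax6 (-0.97) and Tubb3 (-0.41), which fell. Tbx6 (-0.14), Postn (0.15) and Dcn (-0.09), also among them, did not pass. Wnt3 and Col3a1 lay below the median on every array, with control means of 4.40 and 4.50. Over all probe sets, 1 of 4 sets passed for Map2, 2 of 3 for Nes, and 1 of 2 each for Col3a1 and Col1a1. Among the genes that fell, it was 2 of 4 for Hnf4a, 2 of 3 for Gata6 and 2 of 5 for Pax6.

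**Figure D4:**
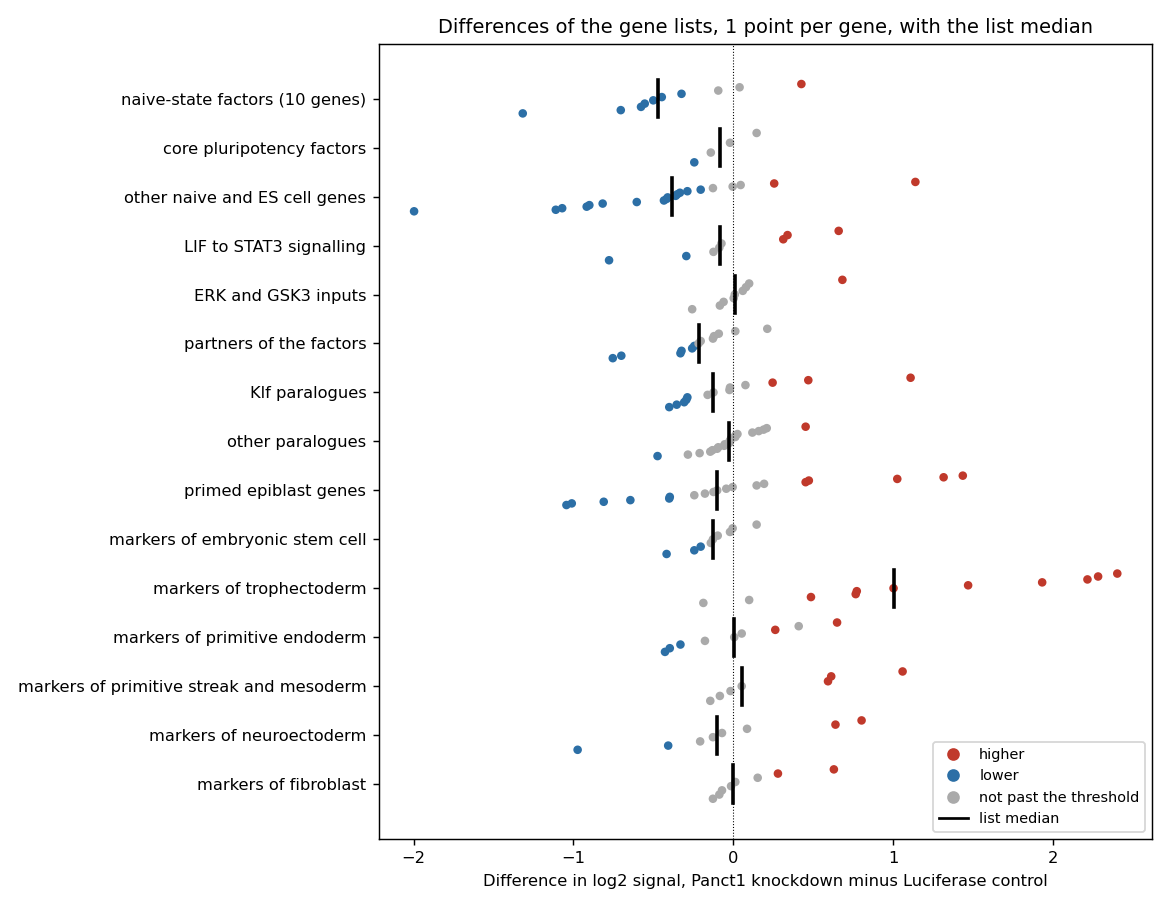
Difference in log2 signal (horizontal axis, Panct1 knockdown minus Luciferase control) of each measured gene of the lists, 1 point per gene through its brightest probe set, with the list median as a bar. Red points rose, blue points fell and grey points did not pass; the 10 factors have a median of -0.47 and the trophectoderm markers one of 1.00.

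The genes whose profile was most like those of Nr0b1 and Tfcp2l1 were taken by the root mean square distance between profiles over the 6 arrays, each set against its own control mean. Closest to Nr0b1 were Bnc2, Fez1, Igsf23, Exoc3l and Plekha4, at distances of 0.07 to 0.09 on the log2 scale. Bnc2 averaged 8.67 ± 0.08 in knockdown and 9.96 ± 0.07 in control, and Fez1 6.65 ± 0.16 in knockdown and 7.95 ± 0.04 in control (SD, n = 3). Closest to Tfcp2l1 were Cpsf4l, Inafm1, Cd55, Pik3r1 and Cpd, at 0.02 to 0.04. Cpsf4l averaged 9.54 ± 0.14 in knockdown and 9.11 ± 0.07 in control (SD, n = 3). With 2 groups of arrays, this likeness is mainly that of the size and sign of the group difference.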

How the data were processed

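RNA from 6 samples was hybridised to Affymetrix whole-genome mouse arrays, 3 per group. The authors deposited 1 log2 value for each probe set of each array, made with GCOS 1.4 and RMA per the submitters' processing notes. Which arrays were normalised together is not stated. Precision is limited by the number of arrays.

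Of 45101 probe sets, 64 controls were left out. A platform annotation gave 34945 of the rest 1 gene symbol, 932 several and 9160 none. Symbols were checked through the gene ID against RefSeq (GRCm38.p6), which changed 0 names. Arrays were grouped by title. Differences (knockdown minus control) were fitted with limma 3.58.1 (lmFit, eBayes; R 4.3.3) on the log2 values, with group as the only term, two-sided, and adjusted by Benjamini-Hochberg. Adjusted p-values of a probe set named by its ID are over 45037 probe sets, others over 18193 genes, each through its brightest probe set (by the mean of the 6 arrays). The threshold was 0.05. The script was tested on data simulated with each gene's own spread within groups. It recovered 12% of shifts of 0.3 on the log2 scale and 74% of shifts of 0.6. A gene that did not pass may therefore still have changed by such an amount. No pair of arrays was a copy, with at most 3.20% of values equal at 2 decimals.

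The members and lists were chosen with earlier results of these data known. Named were all members, the core factors, the 4 genes of each list with the smallest p, and the 5 genes nearest in profile to the highest and the lowest member. The promoter motifs were chosen after the members' values were seen. The settings varied were a replicate block, centring on the median, a further quantile normalisation, eBayes with trend and robust options, array weights, removal of probe sets that are dim or end in _x_at or _s_at, each array left out, a 1.5-fold minimum and 2 other choices of probe set per gene.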

Additional observations from a re-analysis of the deposited data

How the results depend on the processing

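With the replicate number as a block (replicate block), 9 member probe sets fell and 1 rose, and 7 genes fell and 1 rose. For arrays with equal replicate numbers, the deviations from the group means correlated at -0.30 to -0.15. Arrays with unequal numbers were not compared in this way, so whether equal numbers pair the arrays was not tested. Each array left out in turn gave 8 to 12 probe sets fallen and 1 risen, and 6 to 7 genes fallen and 1 risen. A 1.5-fold minimum, which by construction removes small differences, left 3 probe sets and 2 genes fallen, with 0 risen. With the probe set of smallest within-group variance per gene, 6 genes fell and 0 rose, Tfcp2l1 being read by a dim set (0.13). The other settings kept 9 to 12 probe sets and 7 genes fallen.

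The differences that changed sign were all of Klf5, Tbx3 and a dim set of Tfcp2l1, none of which passed before or after, and the cause was not tested. With each array left out, Klf5 ran from -0.23 to 0.013 and its set 1451739_at from -0.0050 to 0.29. Tbx3 ran from -0.052 to 0.11 (1448029_at), and its other sets from -0.015 to 0.17 (1437479_x_at), -0.067 to 0.045 (1439567_at), -0.095 to 0.010 (1445757_at) and -0.095 to 0.19 (1444594_at). The Tfcp2l1 set 1460714_at ran from -0.060 to 0.17. Array weights gave -8.4e-04 for Tbx3 (1448029_at) and -0.090 for 1444594_at. The mean of its probe sets gave 0.059 for Klf5, and the least variable probe set gave 0.11 for Klf5 and -0.050 for Tbx3. Over all probe sets, the block left 1965 fallen and leaving out control replicate 1 left 1901, against 3045.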

Other observations

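The relatives of the Klf members moved in both directions. Of 13 other Klf genes measured on a list of 14, 3 rose and 5 fell, against 12.9% and 11.3% of all genes, with a median difference of -0.12. Klf6, an early response gene in many cells, read 11.03, 10.88 and 10.83 in knockdown, against 9.69, 9.92 and 9.80 in control, and rose by 1.11, and all 5 of its probe sets rose, by 0.52 to 1.48. Klf7 rose by 0.47, with 9.96, 9.98 and 9.91 in knockdown against 9.46, 9.48 and 9.50 in control, with all 4 probe sets risen. Klf9, which hormones induce in many tissues, fell by 0.35, with 6 of 7 probe sets fallen, and Klf16 fell by 0.31. Adjusted p-values of these 4 in limma lay between 3.82e-05 and 0.00768.

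Among relatives of the other members, of 21 measured, from the Esrr, Nr5a, Nr0b, Tfcp2, grainyhead, T-box, Prdm and Sall families, 1 rose and 1 fell, with a median of -0.02. Both counts are below the 12.9% of all genes that rose and the 11.3% that fell. Grhl3, a grainyhead factor of surface epithelia and a relative of Tfcp2l1, rose by 0.45, with 8.63 ± 0.19 in knockdown and 8.17 ± 0.11 in control (SD, n = 3; limma adjusted p = 0.0118). Sall3 fell by 0.47, with 6.48, 6.36 and 6.44 in knockdown against 6.77, 6.94 and 6.99 in control (limma adjusted p = 0.00220), while its second probe set differed by -0.02. Tbx4 and Ubp1 differed by -0.28 and 0.21 without passing (limma adjusted p = 0.0986 and 0.0999).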
